A study of Rattus norvegicus with 15 samples.

Results

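The earliest comparison of the dbcAMP time course set DRG cells treated for 1 h against untreated DRG cells. Its members were the 3 arrays whose titles and characteristics give 1 h, of 15 arrays in all, and no measured value was used to choose them. All cells came from lumbar DRG of juvenile rats that had been dissociated and plated in Sato medium. The treated cells received dbcAMP at 1.5 mM, a cAMP analog that crosses membranes, and the control cells received medium alone. The other 12 arrays, 3 each at 3, 6, 12 and 18 h, had the same design. They enter the estimate of spread behind each 1 h p-value and show where 1 h differs. The time of the 1 h arrays rests on the titles and characteristics, since the protocol text in the labels has 0 h in place of 1 h. Dishes were coated with poly-L-lysine or myelin, and the labels do not say which coating belongs to which array.

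On each array the RNA of treated cells carried Cy5 and the RNA of control cells carried Cy3. The authors deposited 1 ratio of treated over control for each spotted oligonucleotide, called a probe here and named by its plate and well (29F11 lies on plate 29). All values below are log2 of that ratio, so 0 means equal signal and 1 means a doubling. No array had the dyes exchanged. A dye bias of a probe that was the same at every time therefore adds to its ratio at 1 h and cancels in the difference between 1 h and the later times. The ratios give no expression level, so whether the markers of neurons and glia were present in these cultures cannot be read from them. A DRG culture holds neurons, Schwann cells, satellite glia and fibroblasts, and in such mixed RNA fewer cells of a type and less RNA per cell cannot be told apart.

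The 1 h arrays had a ratio for 5026, 5060 and 5049 of the 5088 probes. The median ratio was 1.01 on each, and the SD of their log2 ratios was 0.379, 0.357 and 0.394. Across probes, which are not independent replicates, Pearson's r between pairs of these arrays was 0.409 to 0.483. The SD was wider, 0.627 to 0.703, on 6 later arrays, namely every array of 18 h, arrays 1 and 2 of 12 h and array 3 of 6 h. Whether each array had a culture of its own is not stated, and p-values therefore reflect array-to-array spread alone, possibly of technical origin.

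Cyclic AMP activates protein kinase A, which phosphorylates the transcription factor CREB. CREB then switches on immediate-early genes, whose transcription needs no new protein. Many of these encode transcription factors (Egr, Nr4a, Fos and Jun families), and others encode brakes on the signal: phosphatases of the Dusp family, RGS proteins, salt-inducible kinase 1 and phosphodiesterases. Their transcripts typically come and go within hours. In DRG neurons a higher cAMP level is known for letting axons grow on myelin, a change that requires transcription.

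After 1 h of dbcAMP, 3 genes on the list of feedback regulators were higher in treated cells. Of 5055 probes tested against 0 with limma, 119 (2.35%) passed an adjusted p of 0.05, 37 (0.732%) of them higher and 82 (1.62%) lower in treated cells. Of 27 measured genes for feedback regulators of cAMP and MAP kinase signalling, 3 were higher (Rgs2, Dusp1 and Zfp36) and none was lower. Rgs2, which shortens signalling by G proteins, had log2 ratios of 0.74, 0.70 and 0.75 on the 3 arrays, a mean of 0.73 ± 0.03 (SD, n = 3) or 1.66-fold (limma, adjusted p = 0.00165). All 3 arrays were alike, and Rgs2 passed whichever array was left out (adjusted p 0.0179 to 0.0241). Dusp1, a phosphatase that inactivates MAP kinases, had 0.50, 0.60 and 0.60, a mean of 0.57 ± 0.05 or 1.48-fold (adjusted p = 0.0229). Its 3 values also lay close together, but with only 2 arrays it did not pass (adjusted p 0.127 to 0.175). Zfp36, which speeds the decay of cytokine messages, had 0.41, 1.47 and 0.56, a mean of 0.81 ± 0.58 (adjusted p = 0.0229). Array 2 was far above the other two. The adjusted p was 0.251 without it and 0.0715 without array 3, and Zfp36 passed without array 1.

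The other genes of the feedback list gave values above and below 0. Sik1, the salt-inducible kinase that restrains CREB coactivators, had 0.48, 0.67 and 0.85, with a mean of 0.67 that did not pass (adjusted p = 0.191). Dusp6 had a mean of 0.56 and Gadd45g 0.54, also without passing. With every array scaled to a common spread, Dusp6, Gadd45g and Sik1 passed as well, which makes 6 of 27. That scaling called 122 of 5055 probes higher over all, beside 37 without it. With plate medians subtracted, 2 of the 27 genes were higher, Rgs2 and Zfp36. The median of the 27 genes was 0.04, beside 0.03 over all 4142 named genes, and 55.6% of them lay above 0, beside 55.9% of all. Members of the list below 0 on all arrays included Pde10a (mean -0.32), Socs1 (-0.29) and Rrad (-0.25), none of which passed.

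The classical site for CREB is the cAMP response element, and promoters are shown for 4 genes to set its letters beside the values. In RefSeq promoters of build GRCr8, 250 bases before to 50 after the gene start, 3335 measured genes had a sequence. The element TGACGTCA, the same on both strands, lay in 71 of them (2.13%). It lay in 2 of 25 genes that were higher at 1 h (8.0%), Dusp1 and Vamp1, and in 2 of 56 genes that were lower (3.57%), Ppargc1a and Ptpru. Its core TGACG, sought on both strands and contained in every full element, lay in 904 of the 3335 (27.1%), in 9 of the 25 (36%) and in 13 of the 56 (23.2%). These are matches of letters in a window and do not show binding. The 250 bases upstream of the start follow, read 5′ to 3′ on the gene's strand. Capitals mark the full element in Dusp1 (GRCr8, chr10:17184603-17184852, plus strand), Vamp1 (chr4:159698644-159698893, plus strand) and Ppargc1a (chr14:63634058-63634307, plus strand). In Rgs2 (chr13:58352667-58352916, minus strand) they mark the core on the opposite strand. Rgs2 and Dusp1 are shown as the brakes with the most even arrays, Vamp1 as the other higher gene with the full element, and Ppargc1a as a CREB target that was lower.
Dusp1: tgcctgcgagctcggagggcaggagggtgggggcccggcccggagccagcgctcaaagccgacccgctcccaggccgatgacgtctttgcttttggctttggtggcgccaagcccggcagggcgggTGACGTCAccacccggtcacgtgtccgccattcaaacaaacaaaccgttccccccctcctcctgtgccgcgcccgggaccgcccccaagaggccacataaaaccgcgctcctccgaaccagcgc
Vamp1: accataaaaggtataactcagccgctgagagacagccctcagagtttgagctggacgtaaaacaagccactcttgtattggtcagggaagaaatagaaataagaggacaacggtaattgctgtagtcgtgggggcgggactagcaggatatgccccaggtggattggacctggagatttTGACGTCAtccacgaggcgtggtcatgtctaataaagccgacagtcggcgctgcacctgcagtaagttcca
Rgs2: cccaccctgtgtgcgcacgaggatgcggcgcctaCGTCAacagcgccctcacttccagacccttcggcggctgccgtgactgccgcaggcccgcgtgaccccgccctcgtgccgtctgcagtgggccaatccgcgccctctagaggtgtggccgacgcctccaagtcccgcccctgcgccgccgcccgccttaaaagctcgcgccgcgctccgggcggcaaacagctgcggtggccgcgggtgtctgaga
Ppargc1a: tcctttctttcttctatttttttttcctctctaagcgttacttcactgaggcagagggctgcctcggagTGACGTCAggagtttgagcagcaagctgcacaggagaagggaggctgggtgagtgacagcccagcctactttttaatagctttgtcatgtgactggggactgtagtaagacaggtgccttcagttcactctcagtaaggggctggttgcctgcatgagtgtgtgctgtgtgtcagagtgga
The full element began 124 bases before the start of Dusp1, 71 before that of Vamp1 and 181 before that of Ppargc1a. The core in Rgs2 began 216 bases before its start.

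The transcription factors of the early response were mostly slightly above 0 at 1 h. Of 26 measured immediate-early transcription factors, none passed with limma, with 6 at an unadjusted p under 0.05 (Egr1, Egr2, Junb, Klf6, Myc and Nr4a1, all above 0). In mean, 23 of the 26 (88.5%) lay above 0, beside 55.9% of all named genes, and 12 (46.2%) lay above 0 on all 3 arrays, beside 23.4%. The list's median was 0.10, 0.18 and 0.21 on arrays 1 to 3, where the median of all named genes was 0.01, 0.02 and 0.02.

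Egr1, a zinc finger factor induced by growth factors and cAMP alike, had 0.32, 0.37 and 0.39 (mean 0.36, adjusted p = 0.284). Junb, a partner in AP-1 dimers, had 0.20, 0.53 and 0.51 (mean 0.41, adjusted p = 0.127). Klf6, a zinc finger factor with roles in axon growth, had a mean of 0.40 (adjusted p = 0.06). Junb and Klf6 passed once arrays were scaled to a common spread, which raised the higher calls over all probes from 37 to 122. The orphan nuclear receptor Nr4a1, a strong CREB target in many cells, had 0.08, 0.58 and 0.15 (mean 0.27, adjusted p = 0.492), with array 2 well above the others. Nr4a2 had 0.02, 0.42 and 0.41, Egr2 0.53, 0.30 and 0.11, and Egr3 0.05, 0.62 and 0.20. Atf3, an injury-induced factor of sensory neurons, had 0.10, 0.13 and 0.18 (mean 0.14).

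Of 27 genes taken as typical early cAMP responses, 19 were measured, by 21 probes. Of these probes 17 had a mean above 0 and 15 were above 0 on all 3 arrays. Dusp1 and Tnfaip6 were higher, Ppargc1a was lower, and the rest did not pass. Pde4b and Pde4d, phosphodiesterases that break down cAMP, had means of 0.14 and 0.23. Il6, the cytokine followed up in the study, had 0.14, 0.23 and 0.09 at 1 h (mean 0.15, adjusted p = 0.993), and its means were 0.97, 1.81, 2.10 and 1.86 at 3, 6, 12 and 18 h. Against 0 its 3 h mean did not pass (limma adjusted p = 0.519), and those of 6, 12 and 18 h did. Its difference between 1 h and the mean of the later times did not pass (-1.53 ± 0.52, SE, limma adjusted p = 0.607). Ptgs2, the inducible cyclooxygenase, was measured by a pair of probes that disagreed: 16H10 had a mean of 0.49 and 52D03 a mean of -0.56, and neither passed. The neurotrophin Bdnf had means of -0.27 and -0.15 on its probes.

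**Figure D1:**
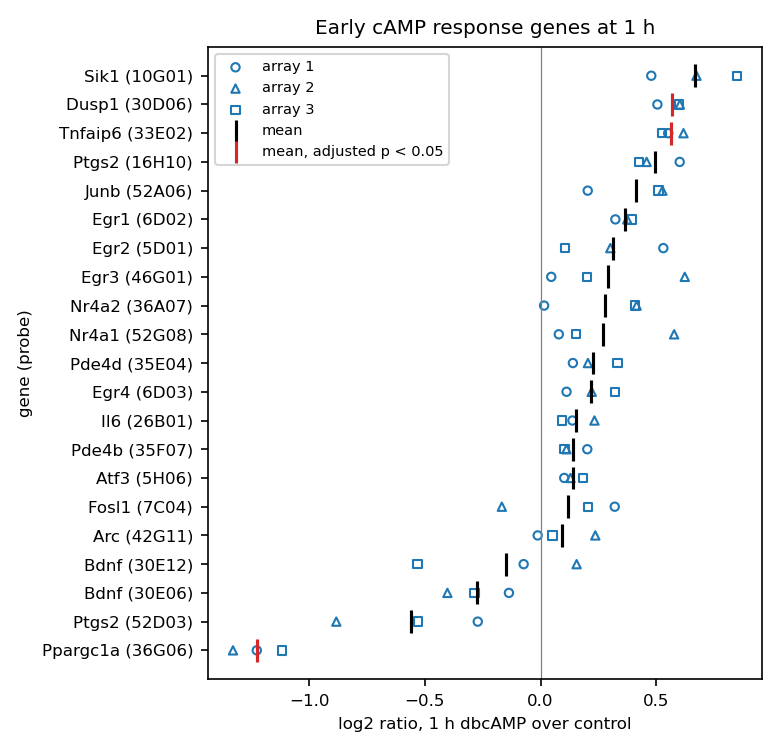
Log2 ratio of 1 h dbcAMP over control (x axis) for the 21 probes of typical early cAMP response genes (y axis). Open symbols are the 3 arrays, bars are their mean, and red bars mark an adjusted p under 0.05. 17 means lie above 0, and Dusp1, Tnfaip6 and Ppargc1a are the ones that passed.

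Secreted early genes of inflammation included the chemokines that were higher. Of 36 measured genes on that list, 4 were higher (Cxcl1, Cxcl2, Ccl2 and Tnfaip6) and 1 was lower (Vegfa), and the list's median was 0.05. Cxcl1 and Cxcl2 attract neutrophils. Cxcl1 had 0.60, 0.89 and 0.40 (mean 0.63 ± 0.24, adjusted p = 0.0229). Cxcl2 had 0.39, 0.63 and 0.55 (mean 0.52 ± 0.12, adjusted p = 0.0229). Ccl2, which attracts monocytes, had 0.77, 0.32 and 0.39 on probe 26C01 (mean 0.49 ± 0.24, adjusted p = 0.0354). Its other probe, 52C04, had a mean of 0.01.

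Tnfaip6, a hyaluronan-binding protein released in inflammation, had 0.55, 0.62 and 0.52 (mean 0.56 ± 0.05, adjusted p = 0.047). These 4 genes lost the call when any 1 of the 3 arrays was left out. They also lost it when the median of each plate was subtracted, with adjusted p of 0.0931 for Cxcl1, 0.0928 for Cxcl2, 0.214 for Ccl2 and 0.15 for Tnfaip6, as Dusp1 did at 0.0566. With arrays scaled to a common spread Tnfaip6 again did not pass (adjusted p = 0.143). The ratios of Cxcl1, Cxcl2, Ccl2 and Tnfaip6 lay above 0 on every array of 1 h. Vegfa, which drives vessel growth, had -0.95, -1.36 and -1.42 on probe 52C12 (mean -1.24, adjusted p = 0.00524). Its other probe, 25C10, had a mean of 0.18.

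Among all probes that were higher, Barhl1 stood far above the rest. Barhl1, a homeobox factor of the developing nervous system, had 5.26, 3.29 and 6.03 at 1 h, a mean of 4.86 ± 1.42 or 29-fold (adjusted p = 0.00409). The arrays were spread widely, all far above 0, and without array 3 the adjusted p was 0.0654. Slc38a1, a glutamine transporter of neurons, followed with 2.70, 2.09 and 3.28 (mean 2.69 ± 0.59, adjusted p = 0.0205). At 18 h the mean of Barhl1 was 7.49 and that of Il6 was 1.86. The paper reports Il6 as the most changed transcript with cAMP and gives its change by qPCR. It describes two-colour arrays as having a narrower dynamic range than qPCR, so the measures are unlike. Scanner intensities were not used, so whether the control signal of Barhl1 was near background was not tested.

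Vamp1, a synaptic vesicle protein, had 0.57, 2.08 and 1.95 (mean 1.53 ± 0.84, adjusted p = 0.00904). Map1b, a microtubule-binding protein of growing axons, had 1.24, 1.15 and 1.00 on probe 31C04 (mean 1.13 ± 0.12, adjusted p = 0.00127) and passed whichever array was left out. Its other probe, 31C10, had -0.38, 0.50 and 0.63 and did not pass. Map1a, its relative of mature neurites, had 1.18, 0.75 and 0.76 (mean 0.90 ± 0.25, adjusted p = 0.00892). Kif1b, a motor that carries vesicles and mitochondria along axons, had a mean of 1.00 ± 0.05 on 28E05 and an uncalled mean of 0.20 on 28E01. Cytoplasmic gamma actin, Actg1, had a mean of 0.53 (adjusted p = 0.0468). With Chn1 lower, these made 3 of 28 cytoskeleton and growth cone genes higher (Actg1, Map1a and Map1b) and 1 lower, with a median of 0.04.

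Of 51 measured genes on the channel list, 2 sodium channels were higher and 2 calcium channel genes were lower, and the median was 0.08. Scn2a, a sodium channel of axons, had 0.74, 0.72 and 1.05 (mean 0.84, adjusted p = 0.013). Scn11a, the Nav1.9 channel of nociceptors, had 0.57, 0.42 and 0.39 (mean 0.46, adjusted p = 0.0229). The P/Q-type calcium channel Cacna1a had -1.02, -1.10 and -0.95 (mean -1.02, adjusted p = 0.000735), and the auxiliary subunit Cacnb2 had -0.96, -0.74 and -1.48 (mean -1.06, adjusted p = 0.00695). Uncalled members lay on both sides of 0, such as Scn1a (0.05), Scn10a (0.03), Scn2b (-0.23), Cacna1c (0.22), Cacna1h (0.32) and Cacnb4 (-0.26). The calcium channel gene Cacna1e, not on the list, was lower on probe 41D01 (mean -0.67, adjusted p = 0.0234), and its probes 21F09 and 21H01 had uncalled means of 0.25 and 0.13. Of the 4 list members called, Cacna1a passed whichever array was left out. Other higher probes included Rps6kb1 (52F12, 1.17), the S6 kinase of the mTOR pathway, whose other probe 34G05 had an uncalled mean of -0.14, the adaptor Apba3 (1.09), the matrix protein Crtac1 (1.05), the DNA repair nuclease Fen1 (0.91), the thioesterase Lypla2 (0.78) and the dense-core vesicle protein Ptprn2 (0.75).

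Among lower genes the lowest named probe was Dlgap2, a scaffold of the postsynaptic density, with -2.39, -2.88 and -2.83 (mean -2.70 ± 0.27, adjusted p = 0.000402). Cyclin D1, Ccnd1, which drives entry into the cell cycle, had -2.33, -2.24 and -2.73 on probe 53G02 (mean -2.44 ± 0.26, adjusted p = 0.000136). Its other probe, 30F03, had 0.65, 0.35 and -0.01. E2f1, a transcription factor of S phase genes, had -1.31, -1.09 and -1.25 (mean -1.22, adjusted p = 0.00183). Ccnd1 and E2f1 were the 2 lower of 24 measured cell cycle genes, none was higher, and the median of the 24 was 0.04.

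Gstp1, a glutathione transferase, had -1.33, -2.99 and -2.40 (mean -2.24 ± 0.84, adjusted p = 0.00395), and Gstm1 of the same family had a mean of -0.80 (adjusted p = 0.0314). They were the 2 lower of 22 antioxidant genes and metallothioneins. The median of these 22 genes was 0.06. Ptges, which makes prostaglandin E2, had -1.50, -2.01 and -2.03 (mean -1.84 ± 0.30, adjusted p = 0.000597). Ptges passed whichever array was left out. The transporter Abcc2 had -1.80, -2.75 and -0.22, with array 3 close to 0. It lost the call without array 1 or without array 2.

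Slit2, Chn1, Nell2 and Neurog3 act in axon guidance or in the making of neurons. Slit2, a secreted axon guidance cue, had -1.50, -1.82 and -1.43 (mean -1.58 ± 0.21, adjusted p = 0.00194). Chn1, a Rac inhibitor that acts in axon guidance, had -2.0, -2.01 and -1.80 (mean -1.94, adjusted p = 0.000402). Nell2, a secreted glycoprotein of neurons, had -1.45, -1.47 and -1.39 (mean -1.44, adjusted p = 0.000136). The proneural factor Neurog3 had -1.71, -1.43 and -1.43 (mean -1.52, adjusted p = 0.000475). These 4 passed whichever array was left out. The neurotrophin Ntf3 had -1.42, -1.05 and -1.25 on 43G09 (mean -1.24, adjusted p = 0.0155) and -0.19, -0.50 and -1.04 on 52H09, which did not pass.

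Ppargc1a, a coactivator of mitochondrial genes and a CREB target in liver, had -1.23, -1.33 and -1.12 (mean -1.22, adjusted p = 0.0388). Its arrays were close together, but it lost the call whichever of them was left out (adjusted p 0.177 to 0.251). Among 33 cAMP enzymes and CREB factors, the protein kinase A anchor Akap1 was lower (-0.69, -0.67 and -0.62, adjusted p = 0.0103) and none was higher. Their median was -0.06, and 33.3% lay above 0, beside 55.9% of all named genes. The list had 5 genes at an unadjusted p under 0.05, a level that 9.64% of all named probes reached. Of these, Adcy4 was above 0, Adcy3, Akap1 and Prkar1a were below, and Adcy2 had probes of opposite sign (20A02 at 0.30 and 52E09 at -0.82). Further lower probes were the lipid phosphatase Inpp4b (-2.08), the carrier protein Fgfbp1 (-1.98), Amotl2 (-1.92), Cd244l1 (-1.48), the calcium sensor Hpcal4 (-1.46) and the zinc finger factor Zic1 (-1.34), each on plate 36 or 43.

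The lower calls were concentrated on 3 of the 53 plates. Plates 36, 41 and 43 held 14, 18 and 20 of the 82 lower calls, together 52 (63.4%), among 287 tested probes. There 18.1% of tested probes were lower and none was higher (0 at an unadjusted p under 0.05 as well). On the other 50 plates 30 of 4768 tested probes were lower (0.629%), with at most 4 on a plate. The median log2 ratio of all probes was -0.25 on plate 36, -0.20 on plate 41 and -0.13 on plate 43, and -0.13 to 0.17 on the other plates. The 37 higher calls lay on 23 plates, with at most 3 on any of them.

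Dlgap2, Cacna1a and Akap1 lie on plate 41, Slit2, Nell2, Neurog3, Gstp1, Ntf3, Olig1 and Zic1 on plate 43, and Chn1, Inpp4b, Fgfbp1, Amotl2 and Ppargc1a on plate 36. Ccnd1, Ptges, Vegfa, E2f1, Cacnb2 and Abcc2 lie on other plates. With each plate's median subtracted on each array, 80 probes passed (28 higher and 52 lower), 77 of them among the 119. Dlgap2 then had -2.47, Chn1 -1.70, Slit2 -1.43, Nell2 -1.28 and Neurog3 -1.37, and all 5 still passed. Akap1, Ntf3 and Olig1 did not. With the 3 plates left out, 48 probes passed (27 higher and 21 lower). What sets these plates apart was not tested.

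**Figure D2:**
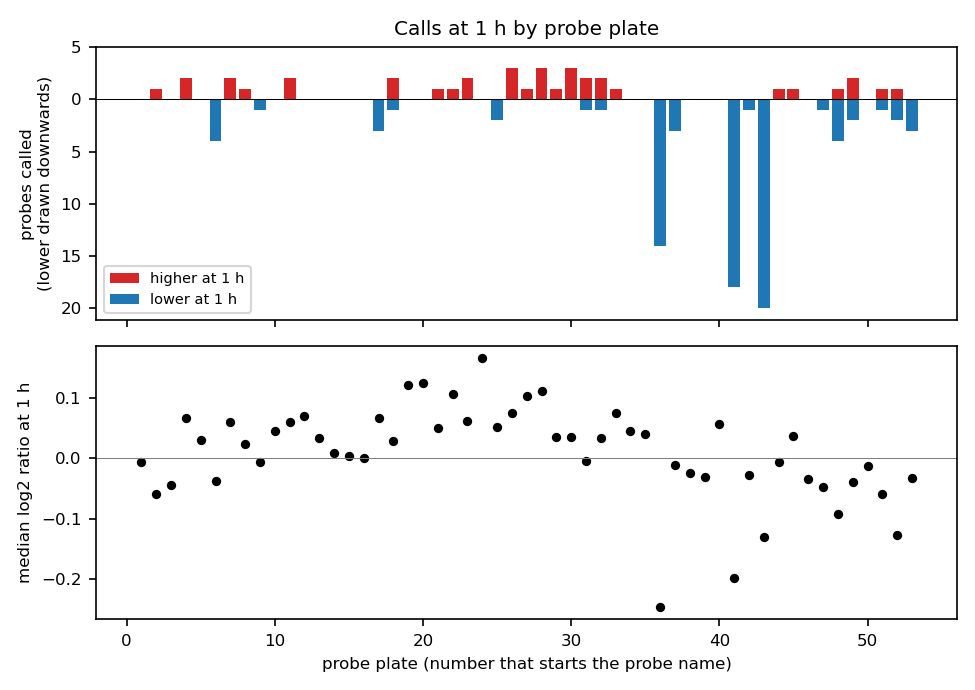
Calls at 1 h by plate (x axis, the number that starts the probe name). The upper panel counts probes called higher (red, upwards) and lower (blue, downwards), and the lower panel gives each plate's median log2 ratio at 1 h. Plates 36, 41 and 43 hold 52 of the 82 lower calls, and their medians are -0.25, -0.20 and -0.13.

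The calls at 1 h were read against the number of arrays and against second probes. Leaving out array 1 turned the count of 119 into 44, leaving out array 2 into 27, and leaving out array 3 into 24. Of 46 called probes taken by the naming rule, 11 passed whichever array was left out. These were Rgs2, Map1b, Cacna1a, Ccnd1, Chn1, Dlgap2, E2f1, Nell2, Neurog3, Ptges and Slit2. A limma fit of the 3 arrays of 1 h alone called 140 probes, 91 of them among the 119. In that fit Zfp36 (adjusted p = 0.131), Ccl2 (0.104), Cxcl1 (0.0594) and Cxcl2 (0.0541) did not pass. By the methods' t-test on the 3 arrays no probe passed after adjustment, with 654 at an unadjusted p under 0.05, beside 497 by limma. All 119 probes had the same sign on their arrays. Of the 100 genes called, 88 had 1 probe, and the other 12 had 13 further probes, of which limma called none (1 at an unadjusted p under 0.05). Of these 13 values, 7 had the sign of the called probe and 6 the opposite sign, and the farthest from 0 was the -0.58 of Ntf3.

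Because the dyes were never exchanged, each call was set beside the later times. A probe was marked when its mean log2 ratio had the same sign and was at least as far from 0 at 3, 6, 12 and 18 h as at 1 h. The later arrays share the dye orientation and the plates. Such a mark is therefore a description and does not tell a lasting response from a constant bias. Among all 4964 probes with a mean at every time, 364 (7.33%) carried the mark. Among the 118 called probes with a mean at every time, 14 carried it.

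The 5 higher ones were Map1b (1.13 at 1 h and 1.18 to 2.02 later), Crtac1 (1.05 and 1.13 to 1.39), Dusp1 (0.57 and 0.61 to 0.79), Tnfaip6 (0.56 and 1.45 to 3.14) and Cxcl2 (0.52 and 0.82 to 1.47). Tnfaip6 and Cxcl2 went well past their 1 h values, while Dusp1 and Crtac1 stayed near theirs. The 9 lower ones were E2f1 (-1.22 at 1 h), complement C5 (-1.20), the unnamed 43F05 (-1.17), Foxd4 (-1.12), Cacna1a (-1.02), the SNARE protein Stx4 (-0.77), the R-type calcium channel Cacna1e (-0.67), the unnamed 25F03 (-0.64) and Abat (-0.55), which breaks down GABA. E2f1 ranged from -1.51 to -1.25 at the later times and Cacna1a from -1.26 to -1.07.

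With the wider mark, at least 0.5 times as far from 0 and of the same sign at every later time, 81 of 118 called probes were marked, 21 of 37 higher and 60 of 81 lower. Over all probes the share was 16.7% (827 of 4964). A called probe is far from 0 at 1 h by its selection, so these shares are not on a like footing. Of the 118, 115 (97.5%) kept their sign at every later time, beside 1465 of 4964 probes over all (29.5%), with the same limit. The median ratio of the later mean to the 1 h mean was 0.803 over higher and 1.02 over lower probes. On plates 36, 41 and 43, 44 of the 52 lower probes carried the wider mark, and elsewhere 16 of the 29 with a mean at every time. Barhl1 (5.48, 4.15, 8.26 and 7.49 at 3, 6, 12 and 18 h), Slc38a1 (2.95, 1.64, 4.45 and 3.70), Dlgap2 (-2.84, -2.31, -1.91 and -2.48) and Ccnd1 (-3.37, -2.74, -2.60 and -1.45) were among the marked probes.

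The other 37 called probes were under 0.5 times as far from 0, or had the other sign, at 1 later time or more. Of the higher genes, Zfp36 had 0.81 at 1 h and 0.19, 0.13, 0.06 and -0.03 at 3, 6, 12 and 18 h. Rgs2 had 0.73 at 1 h, 0.81 and 0.83 at 3 and 6 h, then 0.40 and 0.12. Gsk3b, a kinase of the Wnt and insulin pathways, had 0.67 at 1 h, then 0.71, 0.77, 0.27 and 0.09. Zfp36 was thus at 0.19 by 3 h, while Rgs2 and Gsk3b were still at 0.83 and 0.77 at 6 h. Vamp1 had 1.53 at 1 h and 0.75 at 18 h.

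Of the lower genes, Ptges had -1.84 and -1.80 at 1 and 3 h, then -0.37, -0.76 and -0.18. Gstp1 had -2.24 and -2.76, then -1.05, -1.30 and -0.83. Ppargc1a had -1.22, then -1.34, -1.20, -0.36 and -1.05. Matr3 and Smad3, with -0.46 and -0.55 at 1 h, were at -0.22 to -0.11 and -0.54 to -0.09 later. The difference between 1 h and the mean of the later times did not pass for Zfp36 (0.73 ± 0.19, SE, limma adjusted p = 0.277) or Ptges (-1.07 ± 0.24, SE, limma adjusted p = 0.128). It did not pass for Rgs2 (0.19 ± 0.11, SE) or Gstp1 (-0.75 ± 0.38, SE) either.

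**Figure D3:**
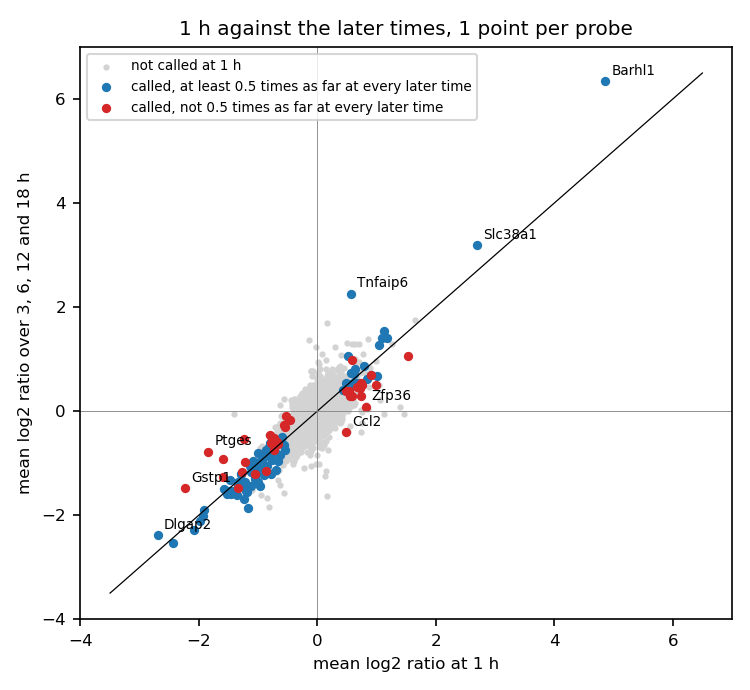
Mean log2 ratio at 1 h (x axis) against the mean of the 3, 6, 12 and 18 h means (y axis), 1 point per probe, with the line of equal values. Blue points were called at 1 h and were at least 0.5 times as far from 0 at every later time, red points were called without that, and grey points were not called. Barhl1 and Slc38a1 lie at the upper right, Tnfaip6 above the line and Ccl2 below 0 on the y axis.

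A constant dye bias cancels in the difference between the 1 h mean and the mean of the 3, 6, 12 and 18 h means. A bias that differs between arrays does not. By this contrast 17 of 4964 probes (0.342%) passed with limma, 9 higher and 8 lower at 1 h than later, with 258 at an unadjusted p under 0.05. Leaving out an array of 1 h gave 7, 7 and 8. The later arrays include those of wider spread, and with all arrays scaled to a common spread 1 probe passed. The cause of this fall was not tested. Tnfaip6 and Ccl2 (probe 26C01) were the 2 of the 17 that also differed from 0 at 1 h. Tnfaip6 went from 0.56 at 1 h to means of 1.45, 2.36, 2.07 and 3.14 (difference -1.69 ± 0.15, SE). On probe 26C01 Ccl2 went from 0.49 at 1 h to -0.13, -0.47, -0.48 and -0.56 (difference 0.90 ± 0.13, SE, limma adjusted p = 0.00462). The mean of that probe lay above 0 at 1 h and below 0 at each later time. The other Ccl2 probe, 52C04, had 0.01 at 1 h and -0.21, -0.52, -0.35 and -0.18 later. The difference of 52C04 did not pass (0.33 ± 0.11, SE, limma adjusted p = 0.622).

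The other 15 probes had means of at most 0.29 from 0 at 1 h, and none of them passed there. Inhba, a subunit of activin, had 0.01, 0.09 and -0.50 at 1 h and means of 0.72 to 2.20 later. Slpi, the secreted protease inhibitor, had 0.11, 0.01 and -0.18 at 1 h and 0.37 to 2.49 later. Sod3, an extracellular superoxide dismutase, had 0.14, -0.10 and 0.11 at 1 h and 0.32 to 1.06 later. Phlda1 had the highest 1 h mean of the group, 0.29, and 0.88 to 1.70 later. Timp1, an inhibitor of matrix proteases, and Cbr1, a carbonyl reductase, had 1 h means of -0.11 and -0.10 and were above 0 at each later time.

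In the opposite direction, Atf3 had 0.14 at 1 h and -0.11, -0.39, -1.19 and -2.90 later. S100a8 and S100a9, the calcium-binding proteins of neutrophils, and the defensins Np4 and Defa5 had 1 h means of -0.03, 0.00, -0.11 and 0.17, and 18 h means of -2.08, -1.95, -1.48 and -3.00. Nes, the intermediate filament of progenitor cells, had 0.07 at 1 h and -0.75 at 18 h, and Serinc5 had 0.20 and -1.39. Between 1 and 3 h alone no probe passed (limma, 65 at an unadjusted p under 0.05). With 18 h left out of the later mean, 5 of the 17 passed.

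**Figure D4:**
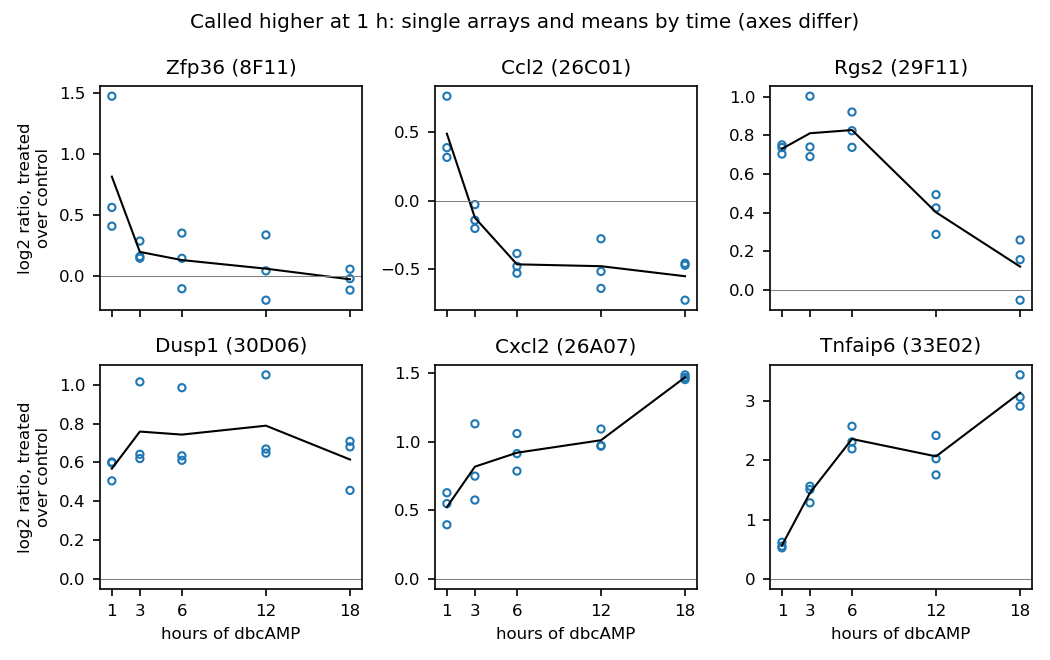
Log2 ratio of treated over control (y axes, which differ between panels) against hours of dbcAMP (x axis) for 6 genes called higher at 1 h. Circles are single arrays and each line follows the mean of its 3 arrays. Zfp36 and Ccl2 have their highest mean at 1 h, Rgs2 goes from 0.83 at 6 h to 0.12 at 18 h, Dusp1 lies between 0.57 and 0.79 at all times, and Cxcl2 and Tnfaip6 have their highest mean at 18 h.

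The lists of regeneration-associated genes and neuropeptides had no call at 1 h without scaling. Over all probes tested 2.35% were called, so no call in lists this short says little. An unadjusted p under 0.05 was reached by 9.64% of all named probes. Of 36 measured regeneration-associated genes, the RAGs, none passed, with 4 at an unadjusted p under 0.05, 2 above 0 (Anxa2 and Klf6) and 2 below (Sox11 and Sprr1a). Their median was 0.00. With arrays scaled to a common spread, Klf6 was higher and Sox11 and Sprr1a were lower, where 331 of 5055 probes passed over all. Gap43, the growth cone protein that typifies RAGs, had 0.00, 0.07 and -0.03. Of 28 neuropeptides and granins none passed (1 at an unadjusted p under 0.05), and their median was -0.02. Cck was lower with scaled arrays. Vgf had means of -0.09 and -0.01 on its probes, and Mt1, a metallothionein, had 0.19, 0.04 and -0.09 on its 3 probes.

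Housekeeping lists had no call either, beside 2.35% called over all probes tested and 9.64% of named probes at an unadjusted p under 0.05. None of 25 genes of glycolysis and lactate transport, 20 heat shock proteins and chaperones, 11 genes of cholesterol synthesis and 63 cytosolic ribosomal proteins passed with limma, each list with 1 gene at an unadjusted p under 0.05. Their medians were -0.03, 0.00, 0.08 and -0.01. With scaled arrays Ldhb of the glycolysis list was higher. Of 19 neurotrophin, GDNF and receptor genes, Ntf3 was the single call. Their median was -0.09, the lowest of the pathway lists, and 21.1% lay above 0, beside 55.9% of all named genes. Of 42 homeobox, bHLH, Sox and Fox factors 1 was higher (Barhl1) and 2 were lower (Neurog3 and Olig1), with a median of 0.01.

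The lists of cell type markers had 1 call at 1 h. Of 19 sensory neuron markers, Scn11a was higher and none was lower, with a median of -0.09. None passed among 17 markers of Schwann cells and satellite glia (median -0.00), 13 of fibroblasts (0.09), 8 of macrophages (0.03) and 9 of endothelium (-0.02). At an unadjusted p under 0.05 these 4 lists had 3, 1, 0 and 1 genes. The sensory neuron list had 3 (Nefh, Nefl and Scn11a, all above 0). Of all named probes 9.64% reached that level. The share of markers above 0 was 76.9% for fibroblasts and 75% for macrophages, beside 55.9% of all named genes. It was 42.1% for sensory neurons, 47.1% for Schwann cells and satellite glia and 44.4% for endothelium.

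**Figure D5:**
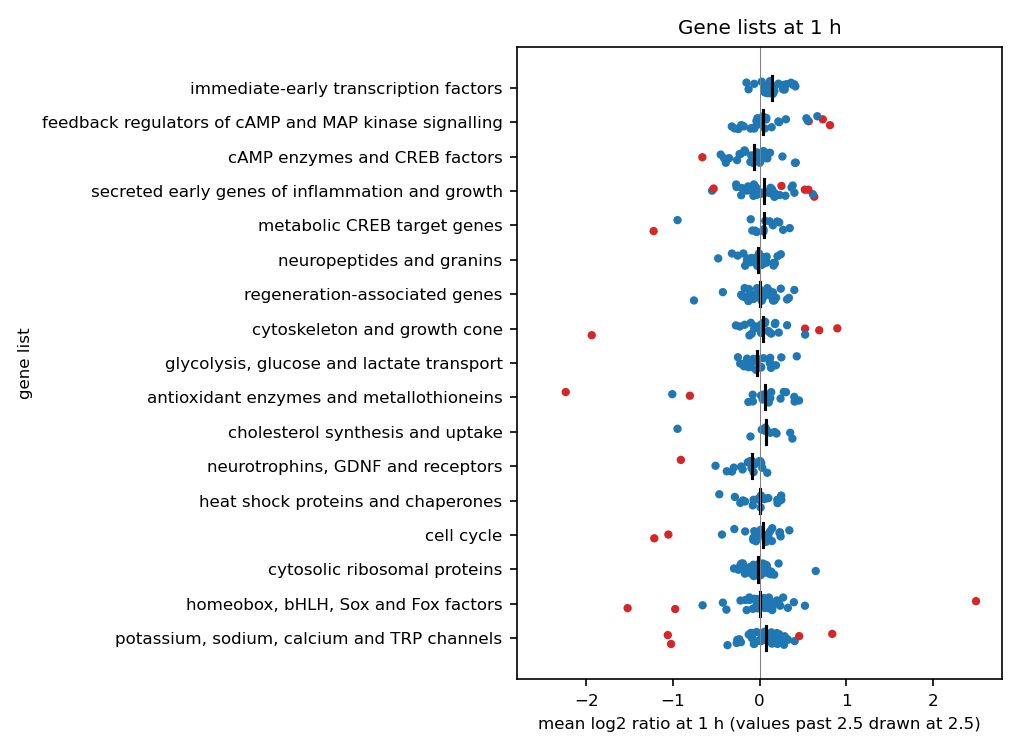
Mean log2 ratio at 1 h (x axis) of every measured gene, with probes of a gene averaged, for 17 pathway lists (y axis). Black bars are list medians, red points are genes with a called probe, and values past 2.5 are drawn at 2.5 (Barhl1). Immediate-early transcription factors have the highest median, 0.15, and neurotrophins, GDNF and receptors the lowest, -0.09.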

How the data were processed

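RNA was labelled with 3DNA dendrimers and hybridised to 2-colour arrays of spotted oligonucleotides. The authors deposited a linear ratio of treated over control per probe and array. How background and dyes were corrected is not given in the sources used, and scanner intensities were not used. Here log2 of each ratio was taken without further centring. Probes were named through the platform annotation, which can be old. Of 5088 probes, 4423 had 1 symbol (4153 genes), 2 had several and 663 had none, and gene identifiers of 4375 matched the GRCr8 table, with 0 symbols changed.

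A probe was tested when at least 2 of the 3 arrays of 1 h had a value. The tests were run with limma 3.58.1 in R 4.3.3 (lmFit and eBayes, 1 mean per time, all 15 arrays sharing the spread, two-sided), with Benjamini-Hochberg adjustment over all probes tested and a threshold of 0.05. The contrast of 1 h with the mean of the later times came from a second fit of the same 15 arrays. It covered probes with at least 2 values at every time. The steps were tested on simulated data. The number of arrays limits the precision. The methods' t-test took the 3 arrays alone.

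Members and gene lists were chosen with earlier results of these data known. The naming rule took the 15 highest and 15 lowest called named probes with 1 sign on all arrays, the 10 highest and 10 lowest called differences between 1 h and later, every called list member, the early cAMP genes and the genes of the study's 18 h comparison. Other genes named here, among them those with the mark or in the promoter search, were chosen after their values were seen. Alternatives covered centring, scaling, plate medians, array weights, a robust prior, filters, thresholds, a replicate block and leaving out arrays. Leaving out plates 36, 41 and 43 and using only 9 arrays of narrow spread were added after seeing the data. Plots used matplotlib 3.10.9.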

Additional observations from a re-analysis of the deposited data

Results flagged for a closer look

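For 17 probes the log2 ratio at 1 h differed from the mean of the 3, 6, 12 and 18 h means by a limma contrast with an adjusted p under 0.05. Values here are differences, 1 h minus later, with SE. Probes lower at 1 h were Tnfaip6 (-1.69 ± 0.15), Inhba (-1.49 ± 0.21), Slpi (-1.25 ± 0.23), the unnamed 27D01 (-1.01 ± 0.18), Phlda1 (-0.94 ± 0.14), Cbr1 (-0.87 ± 0.14), Sod3 (-0.76 ± 0.10) and Timp1 (-0.58 ± 0.11). Probes higher at 1 h were Defa5 (1.81 ± 0.27), the unnamed 17H06 (1.38 ± 0.13), Atf3 (1.28 ± 0.12), S100a8 (0.99 ± 0.15), Np4 (0.95 ± 0.16), Ccl2 (26C01, 0.90 ± 0.13), S100a9 (0.84 ± 0.10), Serinc5 (0.70 ± 0.12) and Nes (0.69 ± 0.13). The other Ccl2 probe, 52C04, did not pass. Groups of 3 arrays are too small for a test of single outlying arrays.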

How the results depend on the processing

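The count of 119 probes changed at 1 h became 331 with arrays scaled to a common spread (122 higher and 209 lower), 376 with array weights (156 and 220), 319 on the 9 arrays of narrow spread (121 and 198), 47 at a threshold of 0.01 (9 and 38), 48 without plates 36, 41 and 43 (27 and 21), 0 by the methods' t-test and 24 to 44 when an array of 1 h was left out. It stayed within 1.5 times 119 with arrays centred on their medians (118), plate medians subtracted (80), a robust prior (117), other filters on missing ratios (119 and 121) and the 3 arrays of 1 h alone (140, of which 91 were among the 119). The 17 probes that differ between 1 h and later became 1 with scaling, 55 with array weights, 10 at a threshold of 0.01, 7 to 8 when an array of 1 h was left out, 5 with the later times taken without 18 h and 0 against 3 h alone. They were 15 to 19 under the other alternatives. The 14 probes marked as at least as far from 0 became 43 at 0.75 times as far, 81 at 0.5 times and 5 (of 331 called) with scaling. The cause of these changes was not tested. No value of a named called probe changed its sign. Labels give each time the same replicate numbers. The ratios of same-numbered arrays did not deviate together (correlations -0.055 to 0.063, 0 of 30 over 0.1). An effect common to treated and control cells cancels in a ratio, so these correlations cannot tell whether same-numbered arrays shared cultures or animals. With the replicate block 100 probes changed at 1 h (98 of them among the 119) and 15 differed from later, and 40 of the 46 named called probes stayed past the threshold.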
